A study of Mus musculus with 6 samples.

Results

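The genes described here make sterols, fatty acids and triglycerides or control that synthesis. They were chosen by name, 46 names in all, and 45 of them matched the gene name of a row among the 22564 protein-coding genes of the table. Of the 45, 6 are regulators, 17 belong to sterol synthesis, 12 to fatty acid synthesis and 10 to acyl-CoA and triglyceride synthesis. The other name, Msmo1, had its row under the older symbol Sc4mol, was matched by its Ensembl identifier, and is described apart and left out of every count. RNA was sequenced from livers, as labelled, of C57BL/6 males 10 weeks old, in 3 control and 3 tunicamycin libraries, 6 in all. The treated mice were given 0.2 mg/kg of tunicamycin by intraperitoneal injection each day for 14 days. Tunicamycin blocks N-linked glycosylation, which loads the endoplasmic reticulum with unfolded glycoproteins. What the controls were injected with, if anything, was not given in the sources. The labels do not say whether the libraries of a group came from different mice. The spread between these libraries, on which p-values rest, may therefore be partly technical.

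Sterol and fatty acid synthesis is governed by the sterol regulatory element-binding proteins (SREBPs), transcription factors that are made as precursors held in the membrane of the endoplasmic reticulum. SCAP carries the precursors to the Golgi, where they are cut and released. INSIG proteins hold SCAP back when sterols are plentiful. SREBP-2, from Srebf2, acts mainly on sterol genes, and SREBP-1c, from Srebf1, mainly on fatty acid genes. In liver, ChREBP, from Mlxipl, adds a response to carbohydrate. The liver is a main site of cholesterol and fatty acid synthesis in the mouse.

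Promoter windows from RefSeq (build GRCm38.p6, 250 bases before to 50 after a start site) were found for 37 of the 45 genes. Both strands were searched for TCACNCCAC, a relaxed form of the sterol regulatory element, for the E box CACGTG, for the CCAAT box, which the factor NF-Y binds, and for the GC box GGGCGG. A gene counted as holding a motif when any of its windows did. No motif is contained in another. The 3 promoters printed here belong to genes picked after their values were seen. Hmgcs1 is the gene whose tunicamycin libraries all lay above its controls, Acly a gene, like Sqle, whose separation in FPKM did not carry over to the counts, and Fasn a gene, like Acaca and Acsl3, whose direction depended on the unit. Hmgcs1 lies on the plus strand at chr13:119690101-119690350, Acly on the minus strand at chr11:100528001-100528250 and Fasn on the minus strand at chr11:120824548-120824797. Each is the 250 bases before the RefSeq start site, 5′ to 3′ on the gene's strand, with matches to any of the motifs on either strand in capitals.
Hmgcs1: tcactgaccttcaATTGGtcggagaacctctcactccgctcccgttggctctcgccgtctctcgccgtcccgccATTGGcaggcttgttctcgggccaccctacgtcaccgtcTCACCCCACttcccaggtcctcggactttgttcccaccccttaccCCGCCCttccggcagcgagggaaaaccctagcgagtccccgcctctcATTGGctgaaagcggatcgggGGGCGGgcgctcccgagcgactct
Acly: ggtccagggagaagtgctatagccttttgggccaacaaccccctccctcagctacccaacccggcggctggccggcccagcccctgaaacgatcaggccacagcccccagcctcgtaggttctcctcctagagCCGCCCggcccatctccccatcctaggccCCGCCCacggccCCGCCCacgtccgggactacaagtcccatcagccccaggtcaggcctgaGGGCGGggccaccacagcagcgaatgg
Fasn: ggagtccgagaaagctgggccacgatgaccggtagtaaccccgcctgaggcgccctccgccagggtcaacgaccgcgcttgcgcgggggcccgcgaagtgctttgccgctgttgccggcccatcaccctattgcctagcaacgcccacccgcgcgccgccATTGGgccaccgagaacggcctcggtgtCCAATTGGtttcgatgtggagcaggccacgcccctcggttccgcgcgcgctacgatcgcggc

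The Hmgcs1 stretch held 1 match to TCACNCCAC, starting 137 bases before the start site, with 3 CCAAT boxes and 2 GC boxes. The Acly stretch held 4 GC boxes and no CCAAT box, and the Fasn stretch held 3 CCAAT boxes and no GC box. The whole windows, 50 bases longer, held 1 CCAAT box for Acly and 4 CCAAT and 3 GC boxes for Hmgcs1. The shares that follow count whole windows. CCAAT was in 13 of 14 sterol genes (92.9%), in 10 of 17 fatty acid and triglyceride genes (58.8%) and in 5 of 6 regulators, against 43.1% of the 5775 tested genes with a window. The GC box was in 13 of 14 sterol genes, 10 of 17 fatty acid and triglyceride genes and 6 of 6 regulators, against 73.2%. The E box was in 8 of 37 genes (21.6%) against 13.0%, and TCACNCCAC in 3 of 37 (Hmgcs1, Acsl1 and Mlxipl) against 1.37%. The lipid synthesis genes with a window include untested ones, Mvk, Mvd and Idi1 among them. Over all 27025 genes with a window, CCAAT was in 41.1%, the GC box in 38.2%, the E box in 8.09% and TCACNCCAC in 1.44%. A match describes these letters in this window, and genes with more than 1 start site had more than 1 window. The 6 regulators had 12 windows, and the 5775 tested genes had 7428.

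**Figure D1:**
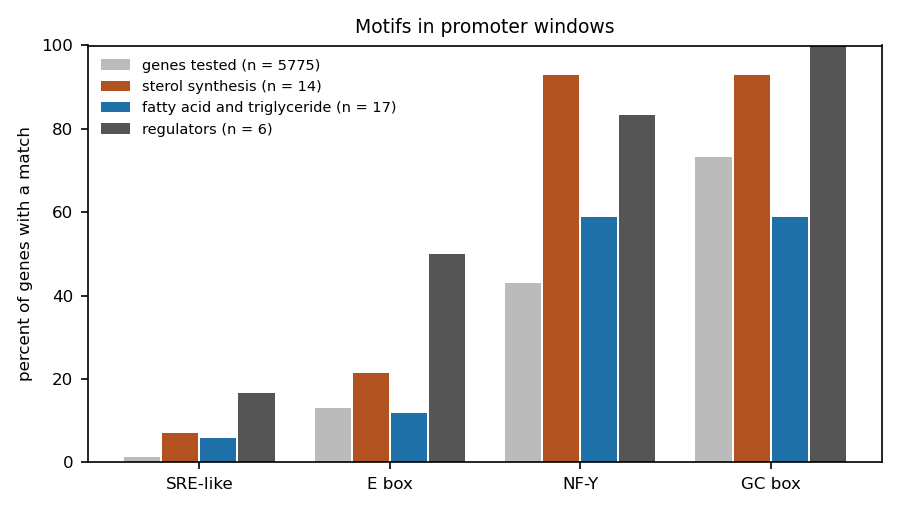
Percent of genes with at least 1 match in a promoter window (y axis) for 4 motifs (x axis; SRE-like is TCACNCCAC and NF-Y the CCAAT box), with bars for all tested genes, sterol genes, fatty acid and triglyceride genes, and regulators. CCAAT was in 92.9% of sterol genes, 58.8% of fatty acid and triglyceride genes and 43.1% of the tested genes.

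Whole reads recovered from the authors' scaled counts came to 541022 to 661144 per library, and 3046 to 5482 of the 22564 genes were above 0 in a library. Each library had a typical read number per gene, the most frequent value after smoothing on a log2 scale. Genes of few reads were left out of this step. The typical number was 139, 46.9 and 53.8 reads in the control libraries and 39.7, 69.1 and 71.0 with tunicamycin. Of values with at least 1 read, 36.6% to 45.5% per library lay within 1.5-fold of it. Control 1 had the highest typical number and the fewest genes above 0. The liver label was checked against 11 hepatocyte markers: Alb, Apob and Hnf4a were above 0 in all 6 libraries, but Ttr, Apoa1, Serpina1a, Cps1, Cyp2e1 and Cyp3a11 were listed at 0 in all 6. The summed FPKM of the 11 was 492, 359 and 297 in the control libraries and 182, 160 and 192 with tunicamycin. The groups did not overlap in this sum, which rested on Alb, at 231, 300.5 and 213 FPKM against 133, 96.3 and 127, and in control 1 also on Hnf4a, at 262 FPKM. Without Alb the sums were 262, 58.9 and 83.9 against 49.3, 63.8 and 65.4, and the groups overlapped. Apob went the other way, at 0.0425, 1.84 and 0.232 FPKM against 5.34, 5.05 and 13.4, and Fgb overlapped. Of 9 epithelial markers, 5 were above 0 in every library (Krt7, Krt8, Krt18, Krt19 and Sprr1a). Cdh1 and Krt5 were listed at 0 in all 6, and Epcam was above 0 in 2 libraries and Krt14 in 1. The summed FPKM of the 9 was 1148, 1257 and 977 in the control libraries against 914, 1074 and 551, with overlap. The largest part of each sum was Sprr1a, at 580, 823 and 456 FPKM against 468, 707 and 199. Krt8 lay lower with tunicamycin without overlap, while Krt19 had a higher mean, with overlap. Like Alb, Apob and Krt8, 5.74% of all tested genes had no overlap in FPKM. Among tested genes above 0 in all 6 libraries, as these 3 were, the share was 9.93%. Of 8 adipocyte markers 7 were listed at 0 throughout, Adipoq and Plin1 among them, and of 6 macrophage markers 3 were. The part of these marker levels in the values below was not tested, and in bulk RNA fewer cells of a type and less RNA per cell cannot be told apart.

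Lipid synthesis genes were detected more often than genes at large. Of the 45 genes, 11 were above 0 in all 6 libraries (24.4%, against 4.98% of all genes): Hmgcs1 and Sqle of the sterol genes, Acly, Acaca, Fasn, Scd1, Scd2 and Me1 of the fatty acid genes, and Acsl3, Acsl4 and Agpat3 of the triglyceride genes. A value above 0 need not rest on a read, as Acsl4 held 0 reads in control 1. Another 7 of the 45 genes were listed at 0 in every library (15.6%, against 61.3%). These were Mvk, Mvd, Idi1 and Tm7sf2 of sterol synthesis and Gpam, Dgat1 and Dgat2 of triglyceride synthesis. DGAT1 and DGAT2 catalyse the last step of triglyceride synthesis and are ordinarily found in liver, as is GPAM, which starts it. The remaining 27 genes were above 0 in some libraries and at 0 in others, 8 of them in 1 library only. Fatty acid genes were the most complete set, with 8, 11 and 9 of 12 above 0 in the control libraries and 10, 9 and 8 with tunicamycin. Sterol genes were sparser, with 3, 7 and 7 of 17 in the control libraries and 7, 6 and 5 with tunicamycin. No regulator was above 0 in all 6 libraries.

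**Figure D2:**
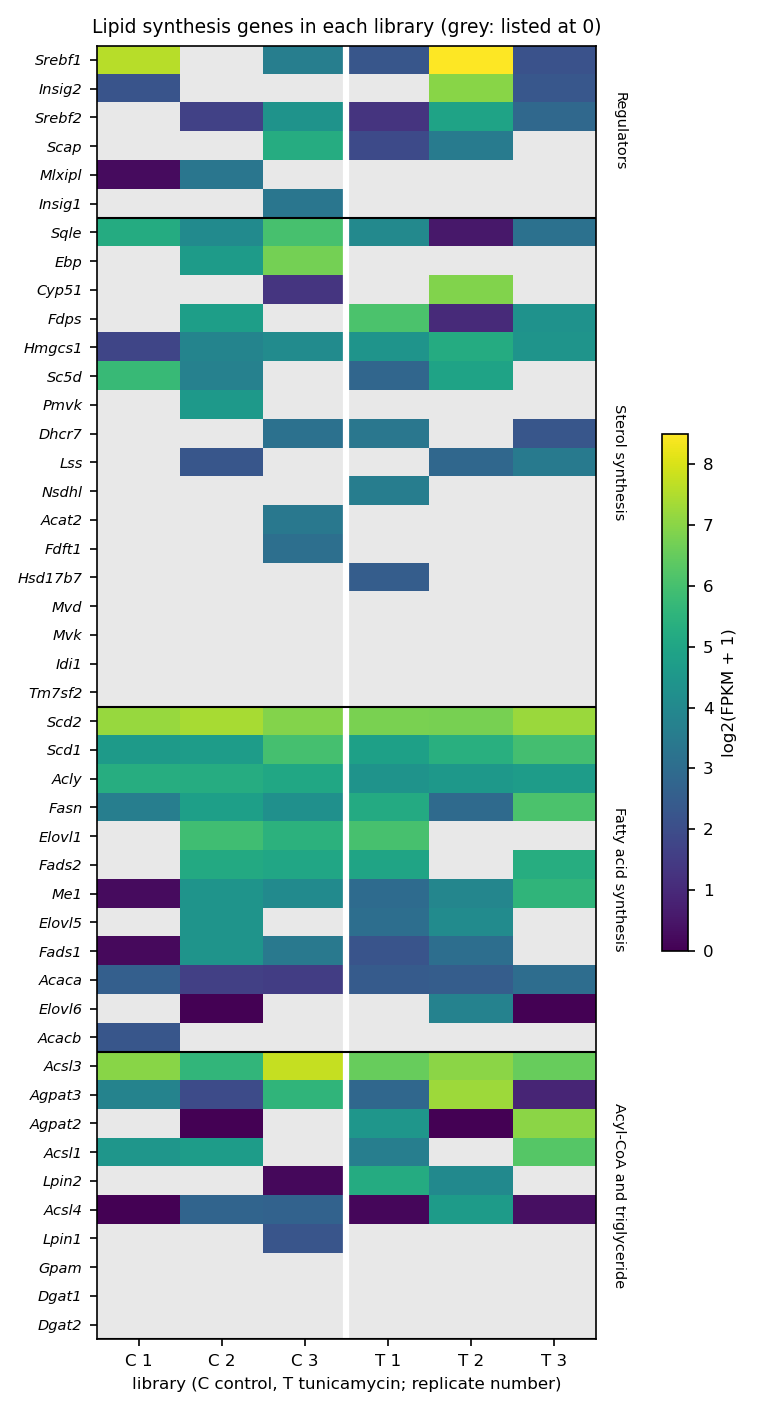
Level of the 45 genes (rows, by role) in each library (columns, 3 control and 3 tunicamycin), as colour on a log2(FPKM + 1) scale, with grey for a gene listed at 0. Scd2, Scd1, Acly and Acsl3 were coloured in every library, while 7 rows were grey throughout.

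No lipid synthesis gene passed the test between tunicamycin and control. The limma test on log2(FPKM + 1) was run on 7696 genes, those whose FPKM averaged at least 1, and 35 of the 45 genes were among them (12 sterol, 17 fatty acid and triglyceride, 6 regulators). It called 0 of the 35 at an adjusted p under 0.05, where 0.065% of all tested genes were called. On whole reads edgeR (background 0.039%) and DESeq2 (0.442%) called 0 as well, and DESeq2 gave no adjusted p for 11 of the 35. At an unadjusted p under 0.05 the counts were 0 of 35 in limma (3.09% of tested genes), 1 in edgeR (Agpat2; 1.49%) and 3 in DESeq2 (Ebp, Agpat2 and Lpin2; 5.8%). The median log2 difference was 0.13 over the 12 sterol genes, with 6 above 0 and 6 below. It was 0.24 over the 17 fatty acid and triglyceride genes, with 10 above 0 and 7 below, and 0.31 over the 6 regulators, with 4 above. Over all tested genes it was 0.10. With tunicamycin 1 or tunicamycin 2 left out, the sterol median was -0.34 or -0.74, so its sign rested on these libraries. The limma standard errors of the 35 genes ran from 0.89 to 2.06 on the log2 scale. These errors, and the p-values and intervals from them, followed the spread of tested genes at a similar mean level. A gene's own spread did not set them. A missed threshold does not show that the groups were alike.

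**Figure D3:**
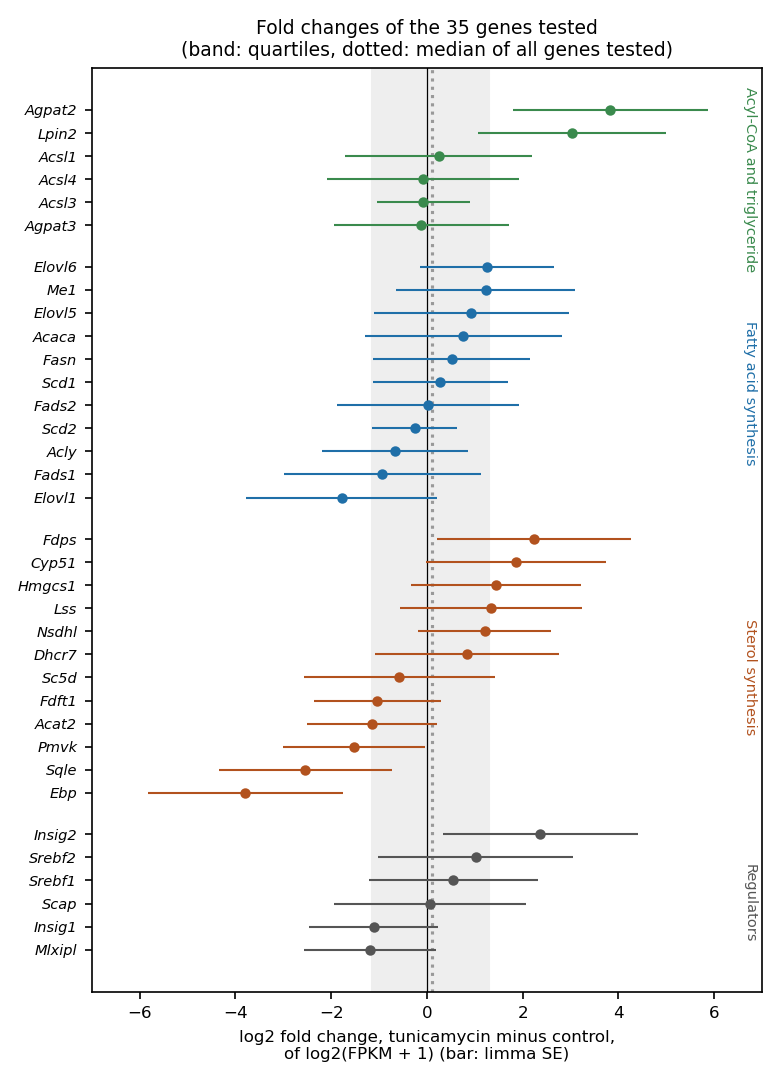
Difference in log2(FPKM + 1), tunicamycin minus control (x axis), for the 35 tested genes by role, with bars for the limma standard error, the quartiles of all tested genes as a band and their median as a dotted line. Values ran from -3.80 (Ebp) to 3.83 (Agpat2), and the bars of most genes crossed 0.

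The levels of the regulators rested on few libraries. Srebf1 lay at 192, 0 and 11.4 FPKM in the control libraries and at 3.82, 358 and 3.4 with tunicamycin. Control 1 and tunicamycin 2 stood far above the rest, and the groups overlapped (log2 difference 0.55, SE 1.76; limma adjusted p = 0.973). Srebf2 lay at 0, 2.13 and 19.6 FPKM in the control libraries and at 1.42, 29.4 and 6.26 with tunicamycin. Its highest library was again tunicamycin 2, and the groups overlapped (log2 difference 1.02, SE 2.04; limma adjusted p = 0.923).

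Scap, the escort of the SREBP precursors, lay at 0, 0 and 37.1 FPKM in the control libraries and at 2.79, 10.5 and 0 with tunicamycin. Its library with the highest FPKM, control 3, held 22 reads, and tunicamycin 1, also with 22 reads, had 2.79 FPKM. The groups overlapped. Insig1 was listed at 0 in 5 libraries and at 9.15 FPKM in control 3. Insig2 lay at 3.59, 0 and 0 FPKM in the control libraries, the first from 1 read, and at 0, 126 and 3.98 with tunicamycin. Of these genes for the sterol-sensitive anchors of SCAP, Insig1 rested on 1 library and Insig2 mainly on tunicamycin 2. Mlxipl lay at 0.186, 9.12 and 0 FPKM in the control libraries and was listed at 0 in all 3 tunicamycin libraries. The limma adjusted p of these 4 regulators lay between 0.852 and 0.999.

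Sterol synthesis had its clearest separation between groups at Hmgcs1, the cytosolic HMG-CoA synthase that supplies the mevalonate pathway. Hmgcs1 lay at 2.39, 13.2 and 16.2 FPKM in the control libraries and at 20.3, 36.8 and 20.2 with tunicamycin. All 3 tunicamycin libraries lay above all 3 controls, in FPKM and also in scaled counts, where the values were 14.2, 79.1 and 96.5 against 122, 220 and 121. Over the 35 genes, 1 was higher with no overlap in both units, against 2.46% of tested genes (4.59% counting both directions). The mean was 10.6 ± 7.29 FPKM in the control libraries and 25.8 ± 9.56 with tunicamycin (SD, n = 3 each), a ratio of 2.43 that ran from 1.75 to 3.295 with 1 library left out. The log2 difference was 1.45 (95% interval -2.03 to 4.93) and did not pass the test (limma adjusted p = 0.852; 0.670 to 0.9999 over the alternatives). Control 1, the lowest library, held 13 reads of this gene.

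Sqle, the squalene epoxidase that commits squalene to sterols, pointed the other way. It lay at 36.8, 15.6 and 64.4 FPKM in the control libraries and at 15.04, 0.448 and 8.007 with tunicamycin. The controls all lay above the tunicamycin libraries in FPKM, but the scaled counts overlapped, at 176, 74.9 and 308 against 84.5, 2.16 and 67.2. The log2 difference was -2.54 (SE 1.81; limma adjusted p = 0.852), and tunicamycin 2 held 2 reads. Over all 35 genes, 3 had no overlap in FPKM (Hmgcs1 higher, Sqle and Acly lower), against 5.74% of tested genes, 3.03% higher and 2.72% lower. All 3 belong to the 11 genes above 0 in every library, and of the 1118 tested genes of that kind 9.93% had no overlap.

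Ebp, the sterol isomerase, lay at 0, 24.6 and 104 FPKM in the control libraries and was listed at 0 in all 3 tunicamycin libraries. Because control 1 was at 0 too, the groups met at 0 (limma adjusted p = 0.852). Cyp51, the lanosterol demethylase, was at 0, 0 and 1.51 FPKM in the control libraries and at 0, 119 and 0 with tunicamycin, its level resting on tunicamycin 2. Fdps, which makes farnesyl diphosphate, was at 0, 25.9 and 0 FPKM in the control libraries and at 67.7, 1.04 and 19.3 with tunicamycin. It was above 0 in all 3 tunicamycin libraries and in 1 control, with overlap between the groups.

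The other sterol genes had less. Sc5d, Dhcr7 and Lss, of the late steps, were each above 0 in 3 or 4 of the 6 libraries, in both groups, with at most 51.6 FPKM. Pmvk, Fdft1 and Acat2 were above 0 in 1 control library each, and Nsdhl and Hsd17b7 in tunicamycin 1 alone. Hsd17b7 was above 0 but under the level for testing. Of the 12 sterol genes tested none had a limma adjusted p below 0.852. Msmo1, the methylsterol monooxygenase read from its older symbol, lay at 0, 31.4 and 1.37 FPKM in the control libraries and at 0, 7.24 and 46.7 with tunicamycin, with overlap (log2 difference 0.78; limma adjusted p = 0.950). Counting it among the sterol genes moved their median from 0.13 to 0.78, an alternative chosen after seeing the data.

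Fatty acid synthesis was led by the stearoyl-CoA desaturases, which put the double bond into saturated fatty acids. Scd2 lay at 146, 168 and 119 FPKM in the control libraries and at 109, 107 and 147 with tunicamycin. The groups overlapped, and the mean was 144 ± 24.6 against 121 ± 22.7 FPKM (SD, n = 3 each; log2 difference -0.26, 95% interval -2.00 to 1.49; limma adjusted p = 0.975). Scd1, described as the main liver form in the mouse, lay at 23.6, 25.3 and 63.3 FPKM in the control libraries and at 27.5, 40.5 and 61.9 with tunicamycin. Its libraries spanned the same range in both groups (log2 difference 0.28, SE 1.41; limma adjusted p = 0.994).

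Scd2, the form known from brain, lay above Scd1 in FPKM in all 6 libraries. The ratio of Scd2 to Scd1 FPKM was 6.16, 6.67 and 1.88 in the control libraries and 3.95, 2.64 and 2.38 with tunicamycin, with overlap. The pair took 61.0%, 60.2% and 60.2% of the reads of the 22 fatty acid and triglyceride genes in the control libraries and 59.2%, 48.8% and 56.2% with tunicamycin. Scd2 ranked between 162 and 389 among all genes by FPKM within a library. Of the 50-base windows of the longest Scd1 transcript 3.03% also occur in Scd2 transcripts, and 2.68% in reverse, so reads from these stretches could have been split between the paralogs. Scd2 had coefficients of variation of 17.1% in the control libraries and 18.8% with tunicamycin, where the median over genes above 0 in all libraries was 67.8% and 61.8%.

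Acly, the ATP citrate lyase that supplies cytosolic acetyl-CoA, varied little within each group in FPKM, though not in scaled counts. It lay at 38.2, 37.7 and 32.2 FPKM in the control libraries and at 19.8, 22.3 and 24.8 with tunicamycin, with coefficients of variation of 9.19% and 11.3%. All 3 controls lay above all 3 tunicamycin libraries, and the mean was 36.0 ± 3.31 against 22.3 ± 2.53 FPKM (SD, n = 3 each). In scaled counts the same libraries held 297, 115 and 98.5 against 89.5, 157 and 174, and the groups overlapped. The ratio of means was 0.619 in FPKM and 0.824 in scaled counts, and in scaled counts it was 1.31 without control 1. FPKM per scaled count of Acly was 0.129, 0.328 and 0.327 in the control libraries and 0.221, 0.141 and 0.143 with tunicamycin, so the groups separated in FPKM and not in counts. The log2 difference of -0.67 (SE 1.52) did not pass the test (limma adjusted p = 0.937). This SE came from genes of a similar level and did not reflect the small spread of Acly in FPKM.

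Fasn, the fatty acid synthase, depended on the unit too. It lay at 11.3, 26.8 and 18.4 FPKM in the control libraries and at 35.9, 6.68 and 67.4 with tunicamycin, and in scaled counts at 208, 427 and 337 against 131, 123 and 410. Tunicamycin 1 was the second highest library in FPKM and the second lowest in scaled counts. The log2 difference was 0.52 in FPKM (SE 1.63; limma adjusted p = 0.973) and -0.73 in scaled counts (SE 0.81; limma adjusted p = 0.838). FPKM per scaled count of Fasn was 0.0543 to 0.0629 in 4 libraries, 0.275 in tunicamycin 1 and 0.165 in tunicamycin 3. It varied by more than 1.5-fold in 12 of 27 lipid synthesis genes (44.4%) against 43.6% of 5815 genes, both with at least 10 scaled counts in 2 or more libraries. The spread was 13.5-fold for Scap, 8.38-fold for Srebf1 and 2.54-fold for Acly, but 1.01-fold for Scd1, Scd2 and Hmgcs1. The cause was not tested.

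**Figure D4:**
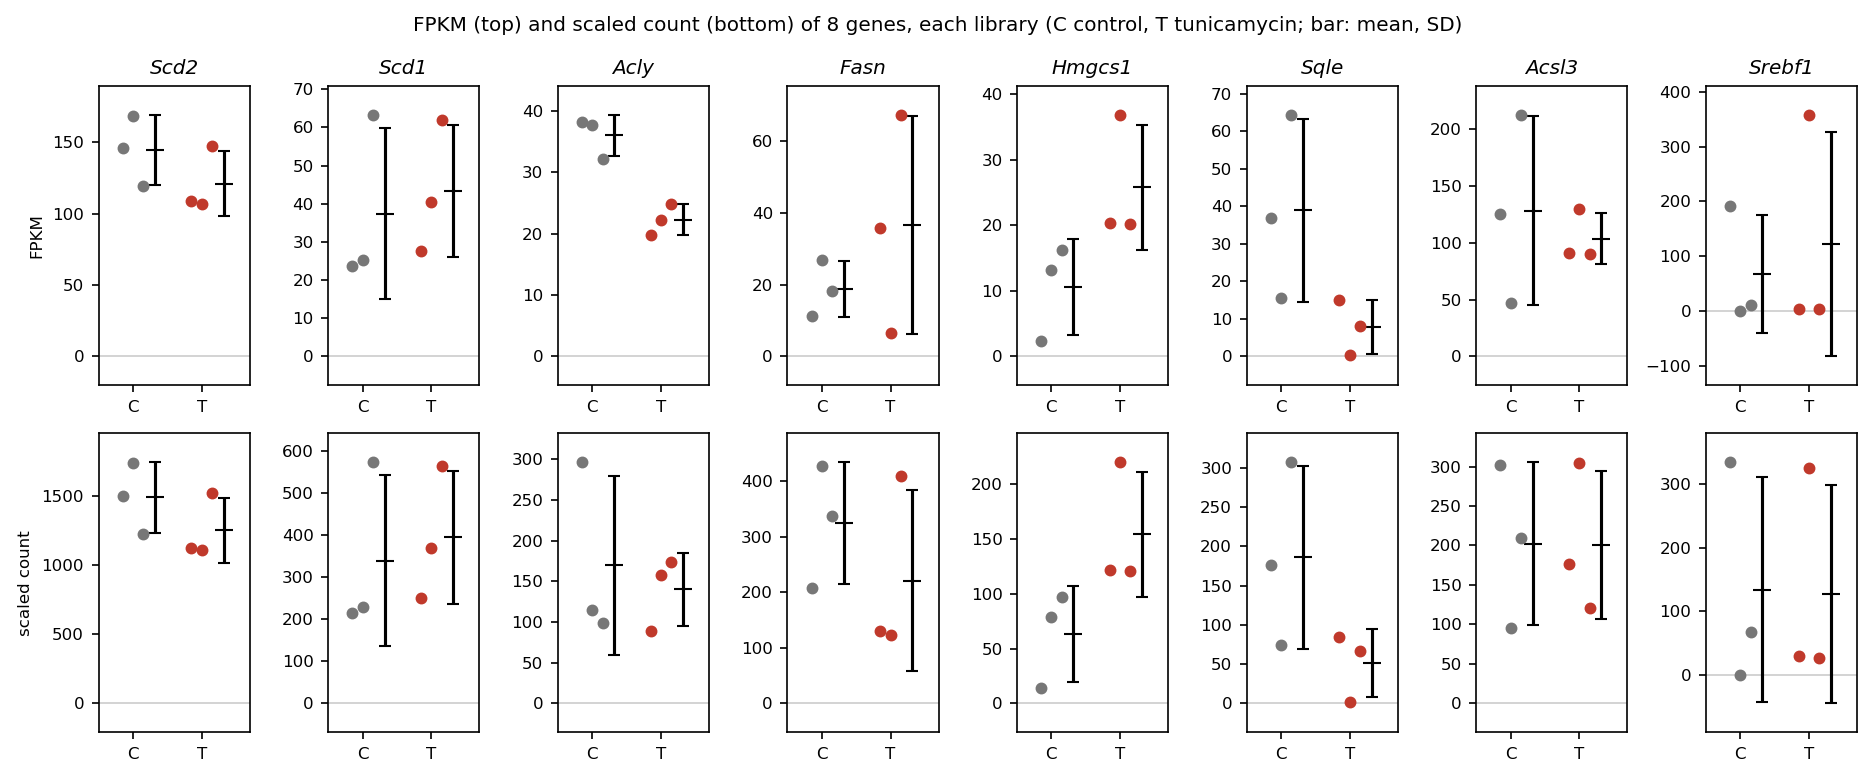
FPKM (top row) and the authors' scaled count (bottom row) of 8 genes in each library (grey points control, red points tunicamycin), with the mean and SD of each group as bars. Hmgcs1 separates the groups in both rows, Acly and Sqle in FPKM alone, and tunicamycin 1 of Fasn lies above the controls in FPKM and below them in scaled counts.

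Me1, the malic enzyme that yields NADPH for synthesis, lay at 0.183, 20.3 and 15.9 FPKM in the control libraries and at 6.82, 14.0 and 45.8 with tunicamycin. Control 1 held 1 read, and the groups overlapped (log2 difference 1.23, SE 1.88; limma adjusted p = 0.884). Acaca, the acetyl-CoA carboxylase that makes malonyl-CoA, was low in every library, at 4.94, 2.07 and 1.902 FPKM in the control libraries and 4.47, 4.74 and 7.26 with tunicamycin. Its highest FPKM, in tunicamycin 3, went with 7 reads, and the groups overlapped (log2 difference 0.76, SE 2.06; limma adjusted p = 0.953). Acacb, the mitochondrial carboxylase, was above 0 in control 1 alone. Of the elongases and desaturases, Elovl1, Elovl5, Fads1 and Fads2 were above 0 in 3 to 5 libraries, with at most 63.5 FPKM. Elovl6, which extends palmitate, had reads in tunicamycin 2 alone, at 12.6 FPKM. The limma adjusted p of those tested lay between 0.852 and 0.999.

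Acyl-CoA and triglyceride synthesis was led by Acsl3, an acyl-CoA synthetase of the endoplasmic reticulum and lipid droplets. It lay at 126, 46.9 and 212 FPKM in the control libraries and at 91.1, 130 and 90.1 with tunicamycin. The tunicamycin libraries fell within the range of the controls (log2 difference -0.08, SE 0.97; limma adjusted p = 0.999). Acsl1, the main liver synthetase, lay at 21.1, 24.99 and 0 FPKM in the control libraries and at 11.4, 0 and 75.9 with tunicamycin, with a library at 0 in each group. Acsl4, which prefers arachidonate, lay at 3.82e-06, 5.64 and 5.34 FPKM in the control libraries and at 0.107, 24.2 and 0.281 with tunicamycin, and 3 of its libraries held 0 to 3 reads.

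Of the acyltransferases that make phosphatidic acid, Agpat3 lay at 13.1, 2.85 and 46.2 FPKM in the control libraries and at 6.12, 151 and 0.861 with tunicamycin. Tunicamycin held both its highest and its lowest library. Agpat2 was at 0, 8.04e-06 and 0 FPKM in the control libraries, with 0 reads in all 3, and at 21.3, 3.67e-06 and 128 with tunicamycin, with 46, 0 and 158 reads. It had 2 tunicamycin libraries with reads and none among controls (limma adjusted p = 0.852; DESeq2 adjusted p = 0.208). Lpin2, a phosphatidate phosphatase, was at 0, 0 and 0.128 FPKM in the control libraries and at 36.3, 15.5 and 0 with tunicamycin. Its controls held 1 read in all, and its tunicamycin libraries 33, 154 and 0 (limma adjusted p = 0.852; DESeq2 adjusted p = 0.249). Lpin1 was above 0 in control 3 alone. With libraries at 0 in both groups, the size of the fitted difference of such genes depends on the pseudocount.

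Read numbers of these genes were compared with the typical number of the library. Of 134 values with at least 1 read, 42 (31.3%) were within 1.5-fold of the typical read number, against 41.7% over all genes. For sterol genes the share was 16 of 35 (45.7%), and for fatty acid genes 11 of 53 (20.8%). Fatty acid genes had 17 of 53 values (32.1%) above 3 times the typical number, sterol genes 3 of 35 (8.57%), and all genes 13.3%. Scd2 stood at 9.83 to 35.1 times the typical number and Scd1 at 1.41 to 10.7 times, and the 6 values above 10 times were all theirs. Hmgcs1 stood at 0.093, 1.60 and 1.802 times in the control libraries and at 3.05, 2.95 and 1.65 times with tunicamycin. Measured this way its groups overlapped, with control 3 above tunicamycin 3. The typical read number differed between libraries by up to 3.51-fold, and its part in the detection of a gene was not tested.

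**Figure D5:**
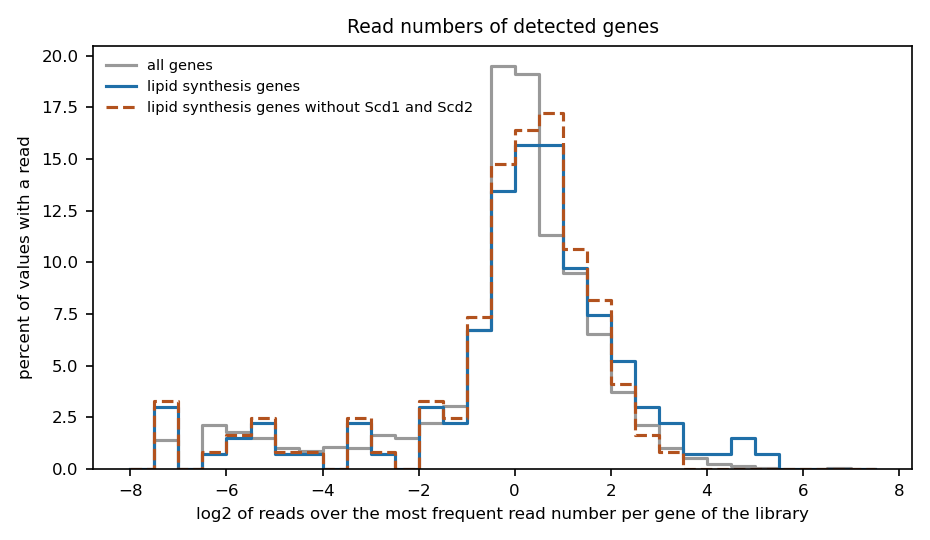
Percent of values with a read (y axis) by the log2 of reads over the most frequent read number per gene of the same library (x axis), for all genes, the lipid synthesis genes, and the same genes without Scd1 and Scd2. The lines peak near 0, and 31.3% of the lipid synthesis values lay within 1.5-fold of it, against 41.7% over all genes.

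Among 49 further genes of these pathways, 36 were tested and 0 passed in limma, edgeR or DESeq2, with 22 log2 differences above 0, 14 below and a median of 0.43. At an unadjusted p under 0.05 the count was 1 in limma (Mlx; 3.09% of tested genes), 0 in edgeR (1.49%) and 1 in DESeq2 (Hacd2, named after its values were seen; 5.8%). Lpcat3, a lysophospholipid acyltransferase, had the highest mean of these genes, at 134, 89.2 and 118 FPKM in the control libraries and 110, 264 and 196 with tunicamycin, with overlap. Mlx, the partner of ChREBP, lay at 175, 40.9 and 113 FPKM in the control libraries and at 52.9, 0 and 0 with tunicamycin, with tunicamycin 1 above control 2 (limma adjusted p = 0.852). Mid1ip1, which helps acetyl-CoA carboxylase to polymerise, lay at 38.9, 95.1 and 93.2 FPKM in the control libraries and at 107, 13.8 and 23.2 with tunicamycin. Its groups overlapped through tunicamycin 1. Rnf145, a ubiquitin ligase of the sterol response that was named after its values were seen, lay at 22.4, 23.5 and 48.8 FPKM in the control libraries and at 15.8, 0 and 17.0 with tunicamycin, lower in all 3 (limma adjusted p = 0.852).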

How the data were processed

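Libraries were stranded and rRNA-depleted, per the labels' protocols. Per the submitters' processing notes, the tools were CASAVA 1.8, cutadapt 1.9.3, HISAT2 2.0.4 and Cuffdiff, on build mm10; a Cufflinks version and the read length were not stated there. For 22564 protein-coding genes the authors deposited FPKM and a scaled, non-whole expected count. Of the counts above 0, 94.8% to 95.4% per library were whole multiples (within 0.01) of a step of 0.9953 to 1.0953; whole reads are the rounded quotient. Where a gene has 0 reads, a share of 0.000454% to 0.000555% (3 reads of the library) is still possible by counting error alone. This share treats reads as independent, which was not tested. With typical read numbers of 39.7 to 139 per gene, the share that could be missed may be higher. Genes averaging at least 1 FPKM were tested with limma 3.58.1 (two-sided, variance trend, pseudocount 1, Benjamini-Hochberg adjusted p under 0.05). FPKM remained the main unit after estimated counts were found; edgeR 4.0.16 and DESeq2 1.42.0 in R 4.3.3 were run on whole reads. The 3 test steps were tested on simulated data. Each simulated gene had a fixed FPKM per count, whereas here it varied between libraries for many genes. How limma on FPKM performs under such variation was not tested. Gene positions are those of GENCODE M21, promoters those of RefSeq.

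The genes and lists were chosen with earlier results of these data known. Values per library are given for the regulators, for genes above 0 in all libraries or without overlap, and for the 4 highest by mean FPKM of each role; Lpin2 and the sparse genes beyond these were added after their values were seen. Labels give no batch and do not say whether replicate numbers pair the libraries. Other settings were another pseudocount, no filter, 2 other scalings, no variance trend, a replicate block and each library left out. A limma fit on scaled counts and the addition of Msmo1 were chosen after seeing the data.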

Additional observations from a re-analysis of the deposited data

How the results depend on the processing

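None of the 35 genes tested was called under any of 15 alternatives; DESeq2 gave no adjusted p for 11 of them. Over all genes limma called 5; DESeq2 called 34, edgeR 3, and 0 were called without the filter on low values, without the variance trend, with the replicate block, and with any 1 library left out (0 to 0). Same-numbered libraries did not deviate together (correlations of -0.0093, -0.0140 and 0.0023). With most genes at 0 in each library, such low correlations cannot show whether same-numbered libraries were paired. The median log2 difference of sterol genes, 0.13 in the reported fit, ran from -0.74 to 0.65 with 1 library left out, and that of fatty acid and triglyceride genes, 0.24, from 0.01 to 0.62. A pseudocount of 0.1 put the sterol median at 0.49, and scaled counts put that of the fatty acid and triglyceride genes at 0.03. Of 315 log2 differences of single genes with no library left out, 17 changed sign, in 8 genes. No filter, no variance trend and the replicate block leave the difference itself unchanged, so their values could not change sign. Over all settings 22 of 35 genes never changed sign. Of these, Insig1, Pmvk, Fdft1, Acat2 and Nsdhl fell to 0 without the 1 library that held their reads. In DESeq2 the differences that changed sign were Srebf1 (-0.16), Fasn (-0.52), Acsl4 (1.28) and Agpat3 (0.64). In edgeR they were Fasn (-0.54), Acsl3 (0.18), Acsl4 (1.03) and Agpat3 (0.55). On scaled counts they were Acaca (-0.34), Fasn (-0.73) and Acsl3 (0.0338). Under quantile normalization they were Scap (-0.44), Acsl1 (-0.0259), Acsl3 (0.11) and Acsl4 (0.0644), and under median-of-ratios scaling Acsl3 (0.0392) and Agpat3 (0.0151). With 1 library left out, ranges crossed 0 for 12 genes: Srebf1 (-1.54 to 2.48), Scap (-0.81 to 1.82), Cyp51 (-0.44 to 3.01), Sc5d (-2.15 to 0.71), Fasn (-0.16 to 1.42), Scd1 (-0.0101 to 0.73), Fads2 (-1.67 to 1.74), Me1 (-0.11 to 1.98), Acsl1 (-1.29 to 1.89), Acsl3 (-0.67 to 0.41), Acsl4 (-1.55 to 0.71) and Agpat3 (-1.91 to 1.27). The causes were not tested. At 541022 to 661144 reads in a library, a gene with 0 reads is not shown to be absent, and why genes lay at 0 was not tested.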
